A study of Mus musculus with 4 samples.

Results

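The 10 genes described here encode the MHC class I molecule, the machinery that loads it with peptide, and the activator of its transcription. They are B2m, H2-K1, H2-D1, H2-T23, Tap1, Tap2, Tapbp, Calr, Erap1 and Nlrc5. From 50600 annotated genes they were chosen by name, as known parts of this pathway, with earlier results of these data known. MHC class I molecules show peptides from inside a cell to CD8 T cells and natural killer cells. A heavy chain pairs with the light chain beta-2-microglobulin in the endoplasmic reticulum, where transporters, chaperones and a trimming peptidase supply and select the peptide before the complex goes to the surface. Nearly all nucleated cells make these proteins, lymphocytes among the most, and interferons and the transactivator Nlrc5 raise the transcription of many of the genes.

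All 4 libraries were made from primary regulatory T cells of mouse strain C57BL/6NJ, the CD4 subset that restrains immune responses and depends on the transcription factor Foxp3. They form 1 group, labelled as biological replicates 1 to 4, with 1 donor identifier, separate biosamples and no age or sex. The labels link a protocol for differentiating CD4 T cells, and names in the file headers carry the words activated and 72 h. No untreated or second group was analysed here, so genes were compared with each other within libraries, and the spread was measured between libraries.

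Replicates 1 to 4 held 121477975, 62472060, 73690296 and 51460018 counts on genes, and the 10 genes took 0.285% to 0.303% of them. Levels below are TPM, a unit of transcript abundance per exon length that sums to the same total in every library. It was computed here from counts divided by exon length and is given as mean ± SD over the 4 libraries. That length counts all annotated exons of a gene, such as 3659 bases for Psmb9 and 871 for Psmb5. It can exceed the length of the transcripts present, so ratios between genes depend on it. The 8 markers of T cells and regulatory T cells were at 1 TPM or more in every library, with Foxp3 at 448 ± 27.8 TPM. Summed markers of other cells that also make class I molecules were low: 3.21 to 4.73 TPM for 7 B cell genes, 4.20 to 5.22 TPM for 7 dendritic cell genes and 2.26 to 4.58 TPM for 7 macrophage and monocyte genes. The 5 natural killer cell genes summed to 0.337 to 2.01 TPM and the 5 CD8 T cell genes to 12.2 to 16.5 TPM. Of these marker genes, Cd8b1 (11.5 TPM), Zbtb46 (4.51 TPM), Eomes (3.34 TPM), Cd79b (3.14 TPM) and Adgre1 (2.55 TPM) reached 1 TPM in every library, and Cd8a, the other CD8 coreceptor chain, was at 0.243 TPM. Clec9a, Siglech, Cd209a, Lyz2, C1qa, Ncr1, Klra8 and Gzmk had 0 counts in every library. What part such cells had in the class I levels was not tested.

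All 10 genes were expressed in every library. Each reached 1 TPM in all 4, against 48.9% of the 21764 protein-coding genes, and 7 of the 10 had a mean of at least 100 TPM, against 9.62% of protein-coding genes. The median of their means was 174 TPM, beside 32.5 TPM for the 10640 protein-coding genes that reached 1 TPM in all libraries. In order of mean level they were B2m, Calr, H2-K1, H2-D1, Tap2, Tapbp, H2-T23, Tap1, Erap1 and Nlrc5. The summed level of the 10 genes was 4393, 4387, 4115 and 4274 TPM in replicates 1 to 4.

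**Figure D1:**
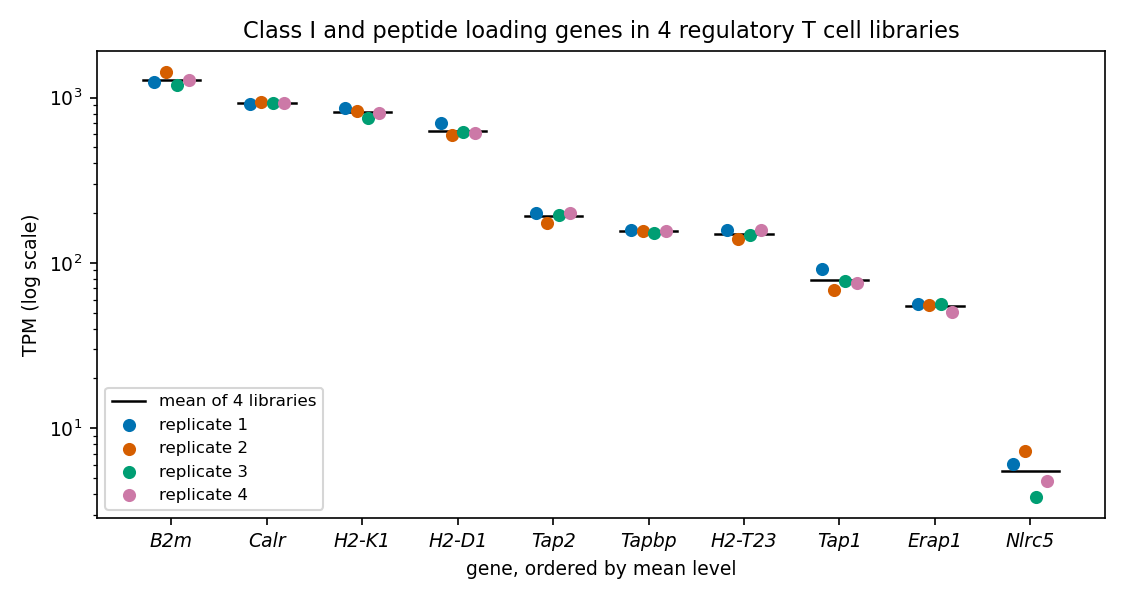
TPM on a log axis of the 10 class I pathway genes in each of the 4 libraries (points) with the mean (bars). The genes run from B2m at 1284 TPM to Nlrc5 at 5.52 TPM, and the points of Nlrc5 and Tap1 lie farthest apart.

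B2m, which encodes the light chain shared by all classical class I molecules, was the most abundant of the 10. It measured 1242, 1428, 1187 and 1278 TPM in replicates 1 to 4, a mean of 1284 ± 103 TPM that ranked 72 among protein-coding genes. Replicate 2 was the highest and replicate 3 the lowest. In bulk libraries, a change in the cells present and a change in RNA per cell cannot be told apart. The gene lies on chromosome 2 of mm10 at 122147686 to 122153083, plus strand, with 860 bases of exon.

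H2-K1 and H2-D1 encode the classical heavy chains that present peptides to CD8 T cells. H2-K1 (chromosome 17, 33996017 to 34000333, minus strand) measured 868, 830.1, 752 and 804 TPM, a mean of 813 ± 48.9 TPM. H2-D1 (chromosome 17, 35262730 to 35267499, plus strand) measured 698, 592, 622 and 613 TPM, a mean of 631 ± 46.3 TPM. Both were highest in replicate 1, and the libraries' ranges of the genes did not overlap. Within libraries H2-K1 was above H2-D1 by 0.37 ± 0.09 on the log2 scale (SD, n = 4), which is 1.29-fold, in 4 of 4 libraries. Heavy chain genes resemble each other closely, so reads can be split or lost among them.

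H2-T23 encodes the heavy chain of Qa-1, a nonclassical molecule that shows leader peptides of other class I proteins to NKG2 receptors. The gene (chromosome 17, 36029773 to 36032855, minus strand) measured 157, 140.1, 147 and 158 TPM, a mean of 150.4 ± 8.61 TPM. Its level was lower than those of both classical chains in every library, by 5.40-fold against H2-K1 and 4.19-fold against H2-D1. The log2 differences were 2.43 ± 0.10 for H2-K1 minus H2-T23 and 2.07 ± 0.08 for H2-D1 minus H2-T23.

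B2m exceeded each classical heavy chain on the per-length scale. The log2 difference was 0.66 ± 0.11 for B2m minus H2-K1, a ratio of 1.58, and 1.02 ± 0.19 for B2m minus H2-D1, a ratio of 2.03. Both had the same direction in 4 of 4 libraries. Counts scaled to library size without length gave the opposite order, because the exons of the heavy chains sum to about triple those of B2m: the differences were -0.94 and -0.56 on that scale. For each of the 17 gene pairs compared within libraries, the exact two-sided sign-flip permutation test gave the smallest p that 4 libraries allow, 0.13, and the same value after Benjamini-Hochberg adjustment over the pairs. No pair could therefore pass a threshold of 0.05, and the sizes and spreads carry the comparison.

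**Figure D2:**
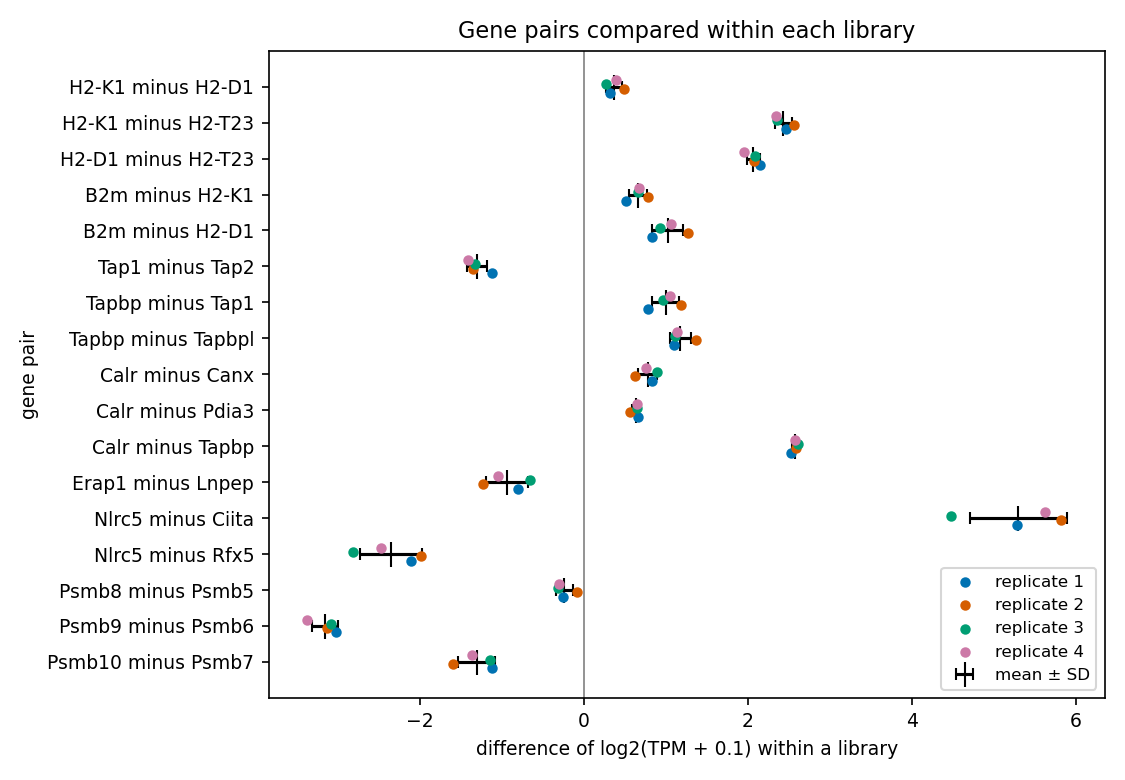
Within-library differences of log2(TPM + 0.1) for the 17 gene pairs, with 1 point per library and the mean ± SD in black. Every pair kept its side of 0 in all 4 libraries, from -3.16 for Psmb9 minus Psmb6 to 5.30 for Nlrc5 minus Ciita.

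The class I heavy chain genes outside the 10 were weaker. Of 30 listed heavy chain genes, including pseudogenes, 26 had a row in the deposited tables and 11 reached 1 TPM in all libraries. Summed over the 26, heavy chain transcripts amounted to 1902, 1747, 1678 and 1749 TPM in replicates 1 to 4. H2-K1 held 46.0 ± 1.15% of that sum, H2-D1 35.7 ± 1.47% and H2-T23 8.51 ± 0.454%, which left 9.85 ± 0.544% for all others. H2-M3, which presents formylated peptides, measured 44.3 ± 2.92 TPM, and H2-T22, whose product is bound by some gamma delta T cell receptors, 34.2 ± 1.16 TPM. H2-K2, annotated as a transcribed pseudogene, measured 29.4 ± 0.816 TPM. H2-T10 and H2-T24 stood at 5.21 ± 0.212 and 3.83 ± 0.530 TPM. H2-M1, H2-M2, H2-M9, H2-M11 and H2-T3 had 0 counts, under the floor of 3 counts, which is 0.0247 to 0.0583 CPM (counts scaled to library size) by library.

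B2m relative to the whole heavy chain sum was 0.653, 0.817, 0.708 and 0.731 in replicates 1 to 4, a mean of 0.727 ± 0.0684, and of 0.242 ± 0.0226 without length normalization. The ratio was lowest in replicate 1, where the heavy chain sum was highest, and highest in replicate 2, where B2m was highest. Against H2-K1 and H2-D1 alone it was 0.891 ± 0.0878. These are ratios of transcript levels that depend on the exon lengths used, and protein was not measured.

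The promoters of B2m, H2-K1 and H2-D1 share the arrangement of boxes known from class I genes, an X2 half-site followed by a Y box, where the complex that recruits Nlrc5 is known to bind. The stretches below are from RefSeq, build GRCm38.p6, 5′ to 3′ on each gene's strand, and are shown because they carry this arrangement in the most abundant light and heavy chain genes. Capitals mark the X2 half-site (TGACG), the Y box (ATTGG) and matches of the kappaB consensus in H2-K1 and B2m. They also mark GAAANNGAA, a form of the interferon response motif, in B2m. Positions are counted from the RefSeq start site. The H2-K1 stretch is chr17:34000349-34000468, minus strand, from -135 to -16. Its positions are counted from the start site at 34000333, and RefSeq gives another at 34000347. The B2m stretch is chr2:122147529-122147648, plus strand, from -158 to -39. The H2-D1 stretch is chr17:35262993-35263022, plus strand, from -101 to -72, and runs only from the first box to the second. The RefSeq start site of H2-D1 lies 364 bases inside the gene as the deposited files give it, so that stretch is upstream of the RefSeq start but within the annotated gene.
H2-K1: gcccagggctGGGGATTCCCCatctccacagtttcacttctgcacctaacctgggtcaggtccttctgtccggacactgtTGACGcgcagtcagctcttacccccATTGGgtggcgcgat
B2m: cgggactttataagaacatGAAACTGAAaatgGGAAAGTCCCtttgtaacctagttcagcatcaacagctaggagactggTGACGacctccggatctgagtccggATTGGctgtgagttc
H2-D1: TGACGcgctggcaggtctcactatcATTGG

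In all 3 genes 20 bases separated the boxes. Over 120 bases, H2-K1 matched H2-D1 at 108 positions (90.0%) and B2m at 39.2%, so the shared boxes of B2m and H2-K1 lie in otherwise unlike sequence. A promoter window of 250 bases before to 50 after the start was at hand for 8 of the 10 genes, and not for Tap2 and Nlrc5. Each motif was read on both strands. X2 followed along the gene's strand by Y within 40 bases was found in 3 of these 8 genes. The same was found in 2.05% of all 32851 windows, where boxes in opposite orientations counted as well. The interferon response motif was searched only as GAAANNGAA, which was in B2m, H2-T23 and Erap1 and in 8.56% of all windows. Other forms and spacings of it were not searched, so windows without a match, those of H2-K1 included, lack that pattern only. The kappaB consensus was in B2m, H2-K1 and H2-D1 and in 4.51% of windows, and TTCNNNGAA, the motif of STAT factors, was in none of the 8 genes and in 8.30% of windows. Tap1 held X2 and Y boxes apart from each other, and Calr and Tapbp held a Y box only. The start sites used for Tapbp and H2-T23 lie 3579 and 154 bases inside the genes as the files give them, and the sequence before the outer start of Tapbp was not searched. Single boxes are common: TGACG alone was in 20.8% and ATTGG alone in 37.4% of windows. A match describes the letters only, and no binding was measured.

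Tap1 and Tap2 encode the partners that form the transporter that pumps peptides from the cytosol into the endoplasmic reticulum. Tap2 (chromosome 17, 34203527 to 34216321, plus strand) measured 201, 174, 194 and 201 TPM, a mean of 193 ± 12.7 TPM. Tap1 (chromosome 17, 34187553 to 34197225, plus strand) measured 92.0, 68.3, 77.3 and 75.6 TPM, a mean of 78.3 ± 9.93 TPM. Although the proteins work as a pair, the transcripts were unequal: Tap2 was above Tap1 by 2.18-fold, 2.55-fold, 2.51-fold and 2.66-fold in replicates 1 to 4. The log2 difference of Tap1 minus Tap2 was -1.30 ± 0.12, and -0.77 without length normalization. Tap1 was highest in replicate 1, 1.35-fold above its lowest library, replicate 2, while Tap2 was nearly equal in replicates 1 and 4. Exons on the opposite strand overlap 3.87% of Tap1 (Psmb9) and 14.1% of Tap2 (Gm15821), but the authors counted by strand.

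Tapbp encodes tapasin, which holds the empty class I molecule at the transporter and edits its peptide. The gene (chromosome 17, 33915899 to 33929288, plus strand) measured 159, 156, 152 and 156 TPM, a mean of 156 ± 3.00 TPM. Zbtb22 shares 1.85% of its exon bases on the same strand, and Gm19412 overlaps 20.2% on the opposite strand. Tapbp was 2.26-fold above its relative Tapbpl, an editor that works outside the loading complex and measured 68.9 ± 6.06 TPM; the log2 difference was 1.18 ± 0.13. It was also above Tap1, by 1.00 ± 0.17 on the log2 scale, which fell to 0.27 without length normalization. Tapbp and H2-T23 were the only neighbours in the order of the 10 genes whose ranges overlapped and whose order changed between libraries, with a difference of 0.05 ± 0.07 and Tapbp higher in 3 of 4.

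Calr encodes calreticulin, a lectin chaperone of the endoplasmic reticulum that keeps the heavy chain with its light chain ready for peptide, and that serves many other glycoproteins. The gene (chromosome 8, 84841850 to 84846934, minus strand) measured 914, 937, 924 and 932 TPM, a mean of 927 ± 9.99 TPM. Its coefficient of variation of 1.08% was the smallest of the 10 genes. Calr was 5.96-fold above Tapbp and 1.55-fold above Pdia3 (599 ± 24.9 TPM), the oxidoreductase that joins it in the loading complex. It was 1.71-fold above Canx, the membrane-bound chaperone calnexin (542 ± 49.6 TPM), with a log2 difference of 0.78 ± 0.12. Without length normalization that last difference was 0.07 (exact sign-flip p = 0.375), so the order of Calr and Canx rests on the per-length scale. Of the 13 loading and folding genes listed, Tap1, Tap2, Tapbp and Calr included, all reached 1 TPM in every library, with a median of 237 TPM and Uggt1, the folding sensor, lowest at 44.5 TPM.

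Erap1 encodes the aminopeptidase that trims peptides in the endoplasmic reticulum to the length class I molecules hold. The gene (chromosome 13, 74639872 to 74691875, plus strand) measured 56.5, 55.7, 56.4 and 50.2 TPM, a mean of 54.7 ± 3.03 TPM. Replicates 1 to 3 lay within 1 TPM of each other, and replicate 4 was lower. Lnpep, a related aminopeptidase of endosomes, was higher in every library at 106 ± 17.9 TPM, with a log2 difference of Erap1 minus Lnpep of -0.94 ± 0.25. All 7 listed peptidases with a row reached 1 TPM in every library, with a median of 84.8 TPM. They included Lap3 at 95.7 ± 2.49 TPM and Npepps at 86.3 TPM, and the lowest was Blmh at 52.0 ± 2.81 TPM.

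The peptides themselves come from the proteasome, whose catalytic subunits exist in a constitutive and an interferon-inducible form. Per length, the 3 inducible subunits lay below their constitutive counterparts by unequal amounts. Psmb8 (336 ± 8.54 TPM) was 1.18-fold below Psmb5 (397 ± 30.3 TPM), with a log2 difference of -0.24 ± 0.11 that turned to 1.41 without length normalization. Psmb9 (30.3 ± 4.14 TPM) was 8.92-fold below Psmb6 (269.9 ± 26.1 TPM), a log2 difference of -3.16 ± 0.16 that became -2.19 without length normalization. Psmb10 (72.01 ± 11.4 TPM) was 2.48-fold below Psmb7 (177 ± 2.29 TPM), a log2 difference of -1.31 ± 0.22 that became -2.31 without length normalization. The genes of the proteasome activator, Psme1 and Psme2, measured 378 ± 6.77 and 395 ± 13.8 TPM.

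Nlrc5, the transactivator of class I genes, had the lowest level and the widest spread of the 10. The gene (chromosome 8, 94434356 to 94527272, plus strand) measured 6.09, 7.32, 3.86 and 4.82 TPM from 1850, 1124, 722 and 618 counts, a mean of 5.52 ± 1.51 TPM. Replicates 1 and 2 lay above replicates 3 and 4, and the highest library was 1.90-fold above the lowest. Its rank among protein-coding genes was 9218. Ciita, the related transactivator of MHC class II genes, had 11, 3, 9 and 0 counts, a mean of 0.0420 TPM. The log2 difference of Nlrc5 minus Ciita was 5.30 ± 0.59 with a pseudocount of 0.1 TPM and 2.62 with a pseudocount of 1, and 6.42 without length normalization, so its size depends on those choices while its direction held in 4 of 4 libraries.

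Apart from Ciita, the other regulators listed for class I promoters were more abundant than Nlrc5. Rfx5, a subunit of the complex that recruits Nlrc5 to the X box, measured 27.8 ± 1.11 TPM, 5.1-fold above it, with a log2 difference of Nlrc5 minus Rfx5 of -2.35 ± 0.38, and -1.74 without length normalization. Of 16 listed regulators 15 reached 1 TPM in every library, with a median of 34.8 TPM. The highest were Irf8, an interferon regulatory factor, at 795 ± 39.0 TPM and the NF-kappaB subunits Nfkb1 at 342 ± 18.5 TPM and Rela at 177 ± 8.63 TPM. The 12 interferon-induced genes listed were split: 5 reached 1 TPM in every library, led by Bst2 at 227 ± 27.5 TPM, Ifi47 at 167 ± 13.4 TPM and Igtp at 158 ± 27.7 TPM, while their median was 0.976 TPM. The lowest, Rsad2, an antiviral enzyme, had 0, 0, 2 and 1 counts.

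Genes for surface turnover and for class I-like molecules were also read. Tmem127, Susd6 and Wwp2, whose products together send class I molecules to degradation, measured 70.0, 65.3 and 31.9 TPM. The ubiquitin ligase gene March4 had 0 counts, while March9 of the same list measured 12.1 ± 2.96 TPM. Of 6 class I-like genes 3 reached 1 TPM in every library: Procr, the protein C receptor, at 39.6 TPM, Mr1, which presents metabolites, at 9.62 TPM and Cd1d1, which presents lipids, at 4.45 TPM. Fcgrt, the neonatal Fc receptor, had 2 counts in replicate 1 and 0 in the others.

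**Figure D3:**
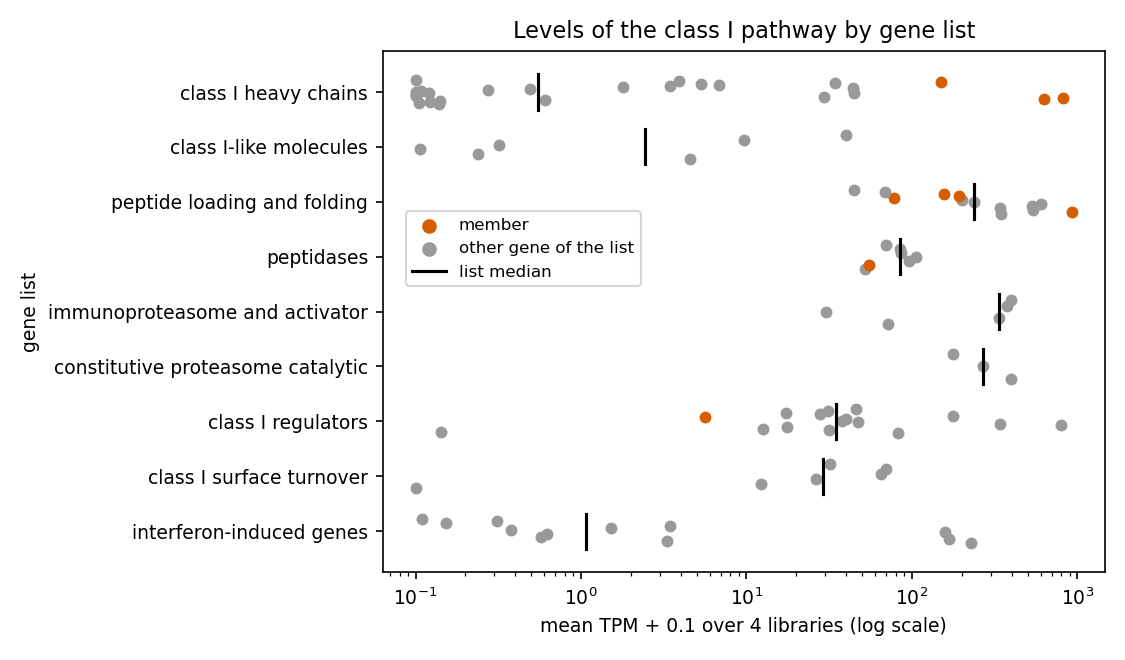
Mean level of each gene over the 4 libraries, as TPM + 0.1 on a log axis, by gene list, with the list median as a black line. Orange points are 9 of the 10 genes described here, since B2m belongs to none of these lists; H2-K1 and H2-D1 lie far above the median of the heavy chains, and Nlrc5 lies below that of the regulators.

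The coefficient of variation between libraries ran from 1.08% for Calr to 27.3% for Nlrc5 and 12.7% for Tap1, beside a median of 7.82% over the protein-coding genes at 1 TPM in all libraries. The spread of each gene was set against genes of its abundance as a dispersion ratio, where 1 is the value usual at that abundance. Calr (0.0719) and Tapbp (0.142) had the lowest ratios of the 10, and Nlrc5 (6.35) and Tap1 (5.04) the highest. H2-D1 was at 1.89, Tap2 at 1.87, H2-T23 at 1.26, B2m at 0.887, Erap1 at 0.851 and H2-K1 at 0.781. With 4 libraries these ratios and their order moved with single libraries. Without replicate 1, H2-K1 was at 0.154, H2-D1 at 0.541 and Tapbp at 0.0582. Without replicate 2, H2-D1 was at 3.65, H2-K1 at 3.29, Erap1 at 2.39, Tap1 at 7.95, H2-T23 at 0.582, B2m at 0.360, Calr at 0.185 and Tap2, then the lowest of the 10, at 0.0328. Without replicate 3, Calr was at 0.0214 and H2-K1 at 0.429, and without replicate 4, Erap1 was at 0.173. Nlrc5 or Tap1 had the highest ratio of the 10 in each of these fits. The median ratio of the 10 was 1.07, with 5 of 10 above 1, beside 0.878 and 45.2% for the 13625 genes tested.

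With edgeR's quasi-likelihood dispersions and Benjamini-Hochberg adjustment over the 13625 genes, 0 of the 10 were called at 0.05, where the whole table had 1 call, or 0.00734%. At an unadjusted p under 0.05 there were 2 of 10, Nlrc5 and Tap1, both with an adjusted p of 0.965, where the whole table had 4.70%. Each left that count when 1 library was left out: the ratio of Tap1 was 1.70 without replicate 1, and that of Nlrc5 was 3.33 without replicate 3. The p-values measure only the spread between these 4 libraries, since the labels do not say whether the cultures came from separate animals. Xist (described below) differed between the libraries: 173 and 199 TPM in replicates 1 and 2, 0.592 and 0.758 TPM in replicates 3 and 4.

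**Figure D4:**
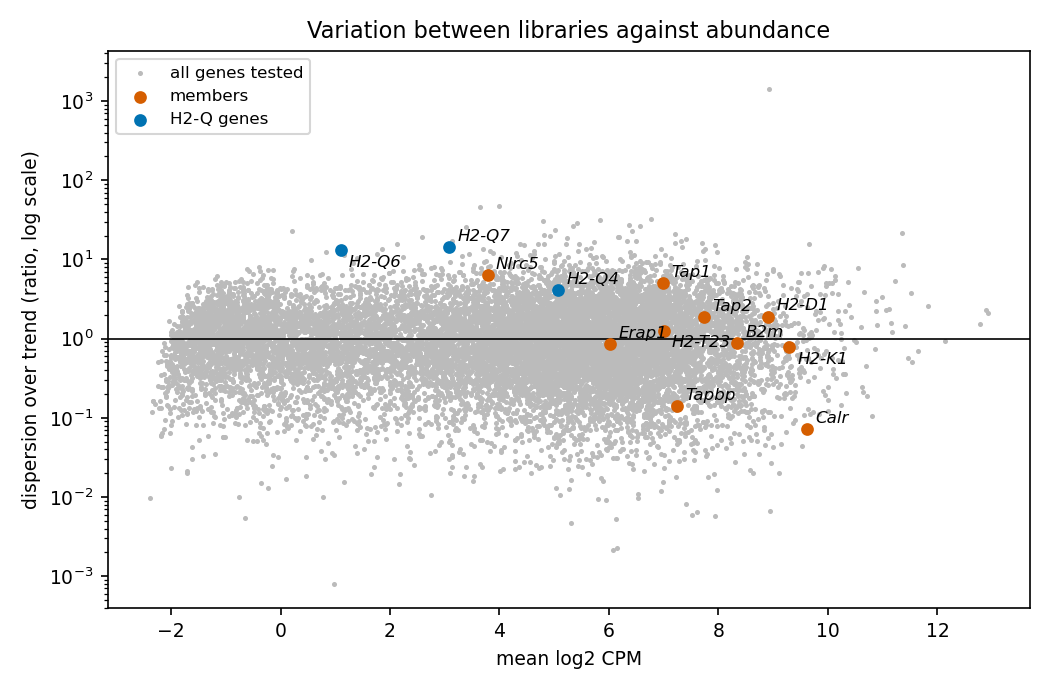
Dispersion ratio of each tested gene (log axis) against its abundance as mean log2 CPM, with the 10 class I pathway genes in orange and 3 H2-Q genes in blue. Nlrc5, at 6.35, and Tap1, at 5.04, lie above the other 8 of the 10 genes, and H2-Q7, at 14.2, and H2-Q6, at 13.01, lie above both.

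The widest spread among the expressed heavy chain genes was in the H2-Q cluster, whose products include Qa-2. H2-Q6 measured 5.37, 5.28, 1.07 and 1.78 TPM in replicates 1 to 4, from 400, 199, 49 and 56 counts. H2-Q7 measured 7.94, 10.07, 3.22 and 5.70 TPM, from 1210, 776, 303 and 367 counts. Both were higher in replicates 1 and 2 than in replicates 3 and 4, the split that Nlrc5 showed. H2-K1 had the same split over a narrower range, at 868, 830.1, 752 and 804 TPM. H2-Q4, the most abundant H2-Q gene, did not follow the split, with 42.8, 52.8, 34.3 and 46.8 TPM. The share of all genes with this split was not counted.

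**Figure D5:**
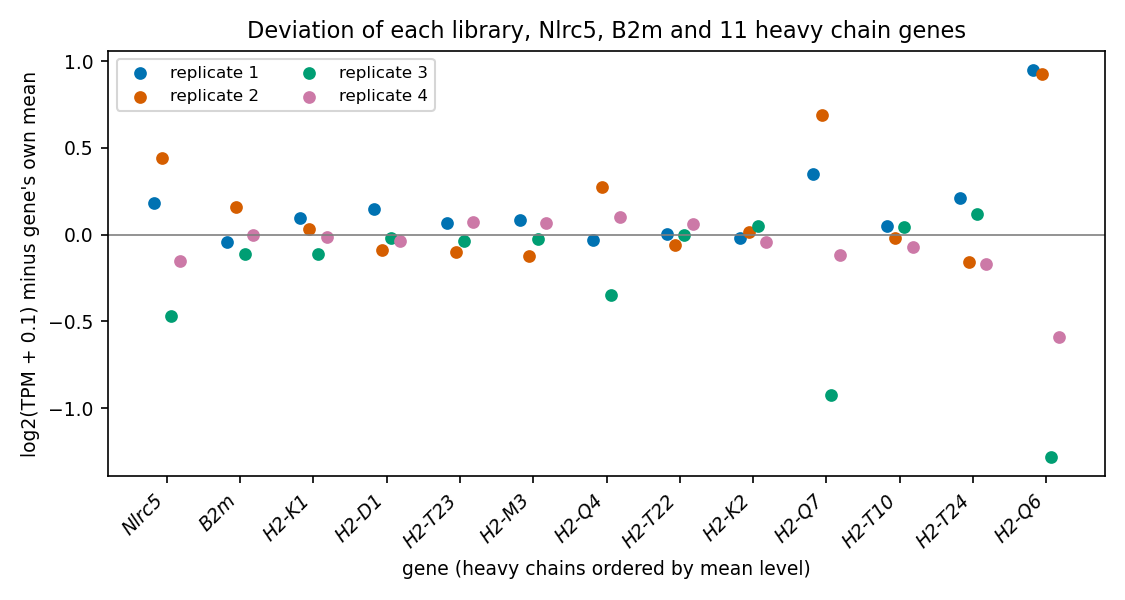
Deviation of each library from the gene's own mean, as log2(TPM + 0.1), for Nlrc5, B2m and the 11 heavy chain genes at 1 TPM or more in every library, with 1 coloured point per library. H2-Q6 reaches from -1.28 in replicate 3 to 0.95 in replicate 1. For H2-Q6, H2-Q7, Nlrc5 and, over a narrower range, H2-K1, replicates 1 and 2 lie above 0 and replicates 3 and 4 below it.

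The dispersion ratio was 13.01 for H2-Q6 and 14.2 for H2-Q7, both with an adjusted p of 0.965 by edgeR. Without replicate 3 they were lower, 8.15 for H2-Q6 and 4.97 for H2-Q7. Without a filter on low counts both were called, at adjusted p of 0.00609 and 0.00403, in a table with 98 calls. Xist, the noncoding RNA of the inactive X chromosome and the only gene called in the whole table, was also split between these libraries, at 173, 199, 0.592 and 0.758 TPM. With 4 libraries in 1 group, the part of that difference between libraries in the levels of Nlrc5, H2-K1, H2-Q6 and H2-Q7 was not tested. The labels give no sex for the libraries. H2-Q genes are near-identical copies, so the level of each single one is uncertain.

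No library was high for all 10 genes. Replicate 1 was the highest library for 5 of them, replicate 2 for 3, replicate 4 for 2 and replicate 3 for none. Replicates 2 and 3 were each the lowest for 4. The median deviation of the 10 genes from their own means was 0.06, 0.01, -0.03 and -0.01 on the log2 scale in replicates 1 to 4. Among 8104 genes of at least 10 TPM in every library, Pdxk, Dhx57 and Txnl4a came nearest to the mean profile of the 10 genes, with root mean square log2 differences of 0.00284, 0.00434 and 0.00803. That profile spans little and rests on 4 libraries, and 708 genes lay within 0.05 of it. The 10 genes themselves lay at 0.0226 (H2-K1) to 0.301 (Nlrc5) from it, so likeness to it describes small library differences only.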

How the data were processed

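Per the file headers, the authors made the deposited counts of paired fragments with featureCounts 1.4.6-p4, using GENCODE M13 for mm10, with both ends mapped and strand setting 2; no option to count multi-mapping fragments appears there. The deposited raw counts and, as another column, exon lengths were used. Total RNA-seq is the labelled assay, although the protocol linked there is for poly(A)+ libraries, and the aligner's version is not given in the sources used here. TPM was computed here from counts and lengths. Gene types came from GENCODE M21, and 50376 of 50600 identifiers matched a symbol.

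Pairs were tested as differences of log2(TPM + 0.1) within libraries. The test of variation used edgeR 4.0.16 under R 4.3.3 (TMM, filterByExpr, intercept only, robust prior, 6.54 prior degrees of freedom), which tested all 10 genes. Alternatives included DESeq2 1.42.0 and limma 3.58.1. Libraries differed beyond sampling noise in every pair. Counts cover counting error only, without molecular identifiers.

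Members, lists, markers and pairs were chosen with earlier results of these data known. Genes named are the 10, all genes of the pairs, the 3 highest and the lowest of each list, heavy chains at 1 TPM in all libraries and the 3 of nearest profile. Zbtb22, Gm15821, Gm19412, March9, Xist, the marker genes, and heavy chains at 0 counts were named after their values were seen.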

Additional observations from a re-analysis of the deposited data

Results flagged for a closer look

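Of 87 sets of 4 library values examined, 3 had 1 library set apart from the other 3 by a gap above Dixon's 95% critical value for the share of the whole range, where chance gives about 1 in 20. Erap1 measured 50.2 TPM in replicate 4 and 55.7 to 56.5 TPM in the others, a gap of 0.866 of the range. The log2 difference of Tapbp minus Tapbpl was 1.37 in replicate 2 and 1.10 to 1.13 in the others, a gap of 0.873. The log2 difference of Calr minus Pdia3 was 0.56 in replicate 2 and 0.65 to 0.66 in the others, a gap of 0.888.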

How the results depend on the processing

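None of the 10 genes was called for variation in any of 12 other settings. A threshold of 0.01 on the same fit was among these settings and could give no other result. Calls over the whole table numbered 1 as reported, 98 of 23106 genes without a filter on low counts and 43 by DESeq2 dispersion outliers. They numbered 1 to 18 when each replicate was left out. Of 119 recomputed pair differences 116 kept their direction. The 3 that turned did so without length normalization: B2m minus H2-K1 to -0.94, B2m minus H2-D1 to -0.56 and Psmb8 minus Psmb5 to 1.41. The ratio of B2m to heavy chains was 0.891 against H2-K1 and H2-D1 only, 0.242 without length normalization and 0.697 to 0.752 when each replicate was left out. Of 50 recomputed levels 42 moved by less than 1 SD, and the others moved when TPM was taken over protein-coding genes. At 5 TPM, 6 of 17 list counts moved by over 1.5-fold. No paired analysis was possible because there is only 1 group, so replicate numbers match no samples across groups; the gene pairs are compared within libraries. Depth limits Ciita, Rsad2 and the silent heavy chains, which lie near the floor of 3 counts.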
